A study of Mus musculus with 9 samples.

Results

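Gene ends that lay in open chromatin in every library of 3 mouse osteosarcoma cell lines were examined: 11692 regions of 124230 open regions in all. The lines came from primary bone tumours and differed in p53. The R172H line was p53R172H/-, with the R172H missense allele and no second copy, the R245W line was p53R245W/-, and the null line was p53-/-, so no line held a normal p53 allele. Each genotype was 1 line and each line gave 3 ATAC-seq libraries, 9 in all, grown in the same serum-containing medium. ATAC-seq uses the Tn5 transposase to cut DNA that nucleosomes leave accessible, and a peak is a stretch with more cuts than its surroundings. Genotype and line cannot be told apart with 1 line each, and whether the libraries of a line were separate cultures is not said in the labels, so p-values measure the spread between these libraries, which may be technical. A region open in fewer cells and a region less open in every cell cannot be told apart either.

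The members were chosen on measured values, namely the presence of peaks. Peaks of the 9 deposited lists were merged where they overlapped by 1 bp or more. A region became a member when each library had a peak in it and when it lay within 1000 bp of either end of a protein-coding gene span (GRCm38). Of the 36473 regions open in all 9 libraries, members made up 32.1%, and the other 24781 regions are called distal here. That the members are open in every library is therefore no result. Among 17277 gene-end regions with a peak in any library, 67.7% had one in all 9, and 391 missed a single library. The same share was 23.2% of 106953 regions away from gene ends. The strength of a region is given below as its rank, the percentile, from 0 to 100, of the -log10 q of its strongest peak among the 36473 regions open in all 9 libraries.

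Transcription starts of active and of many inactive but poised genes lie in nucleosome-depleted DNA, where general transcription factors and RNA polymerase II assemble. In mammals most such promoters lie in CpG islands, which are rich in binding sites of ubiquitous factors such as Sp1, NF-Y, ETS proteins, NRF1 and YY1. Promoters of tissue-specific genes more often lack a CpG island and have a TATA box. Accessibility at promoters therefore varies less between cell types than accessibility at enhancers does.

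The promoters of 10 members that carry the results below are printed here, each from 250 bases before to 50 bases after the annotated start, on the strand of the gene, as given by RefSeq for GRCm38.p6. Capitals mark the motifs that were searched, on both strands. Hjurp and Copz1 were among the strongest members, Klf4 was the widest and Tfap2e was among the weakest. Zfp334, Erich2 and Baiap2l1 were weak in the null line, Tenm4 was strong there, Tor4a was weak in the R245W line and Ifi44l was weak in the R172H line.
Hjurp: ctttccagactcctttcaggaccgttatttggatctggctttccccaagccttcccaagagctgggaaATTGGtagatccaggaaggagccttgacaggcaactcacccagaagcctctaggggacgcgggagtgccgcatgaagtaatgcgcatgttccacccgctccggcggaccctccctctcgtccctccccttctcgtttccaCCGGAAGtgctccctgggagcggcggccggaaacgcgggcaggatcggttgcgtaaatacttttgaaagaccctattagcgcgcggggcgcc
Copz1: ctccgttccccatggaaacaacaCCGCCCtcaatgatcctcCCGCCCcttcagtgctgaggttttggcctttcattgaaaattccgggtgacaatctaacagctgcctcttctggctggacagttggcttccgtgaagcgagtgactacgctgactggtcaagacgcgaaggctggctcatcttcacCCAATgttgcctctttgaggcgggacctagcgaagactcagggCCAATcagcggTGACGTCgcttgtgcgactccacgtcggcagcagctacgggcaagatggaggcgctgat
Klf4: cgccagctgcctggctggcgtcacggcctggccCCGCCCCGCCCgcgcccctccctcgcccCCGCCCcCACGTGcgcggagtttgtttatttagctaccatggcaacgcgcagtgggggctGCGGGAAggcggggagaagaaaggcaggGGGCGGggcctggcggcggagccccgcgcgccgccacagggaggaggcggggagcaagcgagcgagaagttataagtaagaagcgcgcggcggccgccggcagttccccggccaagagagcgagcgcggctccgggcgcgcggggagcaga
Tfap2e: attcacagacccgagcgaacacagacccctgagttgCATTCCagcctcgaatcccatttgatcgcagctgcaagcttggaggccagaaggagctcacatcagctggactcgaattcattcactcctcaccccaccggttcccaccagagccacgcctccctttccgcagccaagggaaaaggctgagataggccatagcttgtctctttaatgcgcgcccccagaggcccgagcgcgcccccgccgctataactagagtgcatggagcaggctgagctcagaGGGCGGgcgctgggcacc
Zfp334: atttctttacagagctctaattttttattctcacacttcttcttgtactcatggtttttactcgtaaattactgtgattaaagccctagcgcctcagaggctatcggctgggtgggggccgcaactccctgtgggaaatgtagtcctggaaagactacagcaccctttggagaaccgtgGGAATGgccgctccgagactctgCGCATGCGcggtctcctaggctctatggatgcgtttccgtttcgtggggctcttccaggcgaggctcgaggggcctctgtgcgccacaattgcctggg
Erich2: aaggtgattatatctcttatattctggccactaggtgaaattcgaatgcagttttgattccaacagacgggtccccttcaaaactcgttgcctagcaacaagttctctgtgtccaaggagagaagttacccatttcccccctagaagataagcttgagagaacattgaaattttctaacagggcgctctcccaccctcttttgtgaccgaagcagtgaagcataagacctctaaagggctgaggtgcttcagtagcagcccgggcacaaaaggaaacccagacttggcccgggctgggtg
Baiap2l1: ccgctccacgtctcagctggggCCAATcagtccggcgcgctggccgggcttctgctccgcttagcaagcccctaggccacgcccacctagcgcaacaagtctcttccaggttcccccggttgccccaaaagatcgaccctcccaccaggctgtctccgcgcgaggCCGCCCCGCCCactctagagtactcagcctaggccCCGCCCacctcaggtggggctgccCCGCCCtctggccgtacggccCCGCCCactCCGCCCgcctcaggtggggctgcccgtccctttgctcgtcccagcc
Tenm4: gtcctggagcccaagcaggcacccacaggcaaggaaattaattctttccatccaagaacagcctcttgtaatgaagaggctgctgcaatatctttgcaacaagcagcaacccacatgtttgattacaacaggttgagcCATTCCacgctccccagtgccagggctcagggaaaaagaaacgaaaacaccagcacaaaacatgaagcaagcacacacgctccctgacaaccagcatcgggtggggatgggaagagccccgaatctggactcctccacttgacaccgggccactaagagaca
Tor4a: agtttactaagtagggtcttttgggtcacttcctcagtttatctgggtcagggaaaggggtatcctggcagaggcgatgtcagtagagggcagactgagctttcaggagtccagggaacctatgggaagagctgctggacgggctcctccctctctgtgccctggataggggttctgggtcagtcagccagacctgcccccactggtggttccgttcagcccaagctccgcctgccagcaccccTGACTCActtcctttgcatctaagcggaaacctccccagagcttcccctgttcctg
Ifi44l: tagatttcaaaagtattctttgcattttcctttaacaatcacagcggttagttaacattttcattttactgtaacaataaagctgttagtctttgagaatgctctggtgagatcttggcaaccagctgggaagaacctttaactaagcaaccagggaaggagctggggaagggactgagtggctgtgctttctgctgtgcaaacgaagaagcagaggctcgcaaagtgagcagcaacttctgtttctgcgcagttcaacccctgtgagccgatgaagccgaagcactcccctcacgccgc
The windows lie, in GRCm38, for Hjurp at chr1:88277530-88277829 on the minus strand, Copz1 at chr15:103272638-103272937 on the plus strand, Klf4 at chr4:55532426-55532725 on the minus strand, Tfap2e at chr4:126736220-126736519 on the minus strand, Zfp334 at chr2:165388210-165388509 on the minus strand. Those of the others are Erich2 at chr2:70508569-70508868 on the plus strand, Baiap2l1 at chr5:144358063-144358362 on the minus strand, Tenm4 at chr7:96170994-96171293 on the plus strand, Tor4a at chr2:25196764-25197063 on the minus strand and Ifi44l at chr3:151762842-151763141 on the minus strand.

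The printed promoters held 5 to 40 CpG dinucleotides. They are examples, and those with few CpGs include Erich2 and Tor4a, each strong in at least 1 line. Hjurp, whose product loads the centromeric histone CENP-A, held 22 CpGs, a CCAAT box and an ETS core. Copz1, a coatomer subunit of vesicle transport, held 19 CpGs, 2 CCAAT boxes, 2 GC boxes and a CRE. Klf4, a Krüppel-like transcription factor, held 40 CpGs and 4 GC boxes, and Baiap2l1, an actin-binding membrane adaptor, held 25 CpGs and 6 GC boxes. Tfap2e, weak in every library, still held 17 CpGs and a GC box. Tor4a, of the torsin family, held 5 CpGs and an AP-1 motif, Tenm4, a teneurin of cell adhesion, held 6 CpGs, Erich2 held 7 CpGs and Ifi44l, which is induced by interferon, held 8, both with none of the motifs searched. No match says only that these letters are not in the window.

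Across the genome, the promoters that lay in a member differed in base composition from those that did not. A RefSeq promoter was given for 17492 of 21887 protein-coding genes, and the start of 8760 of them (50.1%) lay in a member. Promoters in a member had a median of 22 CpGs in 300 bases, against 4 in the 8732 others. The ratio of observed to expected CpG was 0.6 or more, a usual sign of a CpG island, in 80.3% of promoters in a member, 16.4% of the others and 48.4% of all promoters. Among members this share rose with strength, from 57.9% in the weakest 2923 members by mean rank to 73.7%, 84.6% and 91.1% in the next groups of that size. The rule did not use sequence, but openness at a promoter and CpG content are known to go together, so these shares describe the members and were not tested.

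Motifs of ubiquitous factors were also more frequent in promoters of members. The GC box (GGGCGG), bound by Sp1, was present in 70.1% of promoters in a member, 22.5% of the others and 46.3% of all. The ETS core (CCGGAAG) was present in 20%, 3.80% and 11.9% in the same order, the NRF1 motif (GCATGCG) in 7.26%, 1.73% and 4.50%, and YY1 (ATGGCGG) in 9.08%, 1.79% and 5.44%. CRE (TGACGTC) was found in 6.14%, 1.82% and 3.98%, E2F (GCGGGAA) in 9.49%, 2.53% and 6.01%, the E-box CACGTG in 10.8%, 5.06% and 7.91%, and the Kaiso core (TCTCGCG) in 5.99%, 1.31% and 3.65%. All of these motifs hold a CG, so their shares move with CpG content, and 22.6% of E2F matches overlapped a GC box. Of the motifs without a CG, 4 were less frequent in promoters of members. The TATA box (TATAAA) was present in 6.31% of promoters in a member, 20.4% of the others and 13.3% of all. AP-1 (TGANTCA) was present in 4.22%, 9.85% and 7.03%, the Runx motif (TGTGGTT) in 3.17%, 6.49% and 4.83%, and the TEAD motif (GGAATG) in 11.2%, 15.8% and 13.5%. The ZNF143 core (ACTACAA) was present in 4.66%, 2.98% and 3.82%. The CCAAT box of NF-Y (CCAAT) was as frequent in members as elsewhere, 39.3% against 39.0%, yet among members its share was 29.4% in the weakest of these 4 groups and 50.7% in the strongest.

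**Figure D1:**
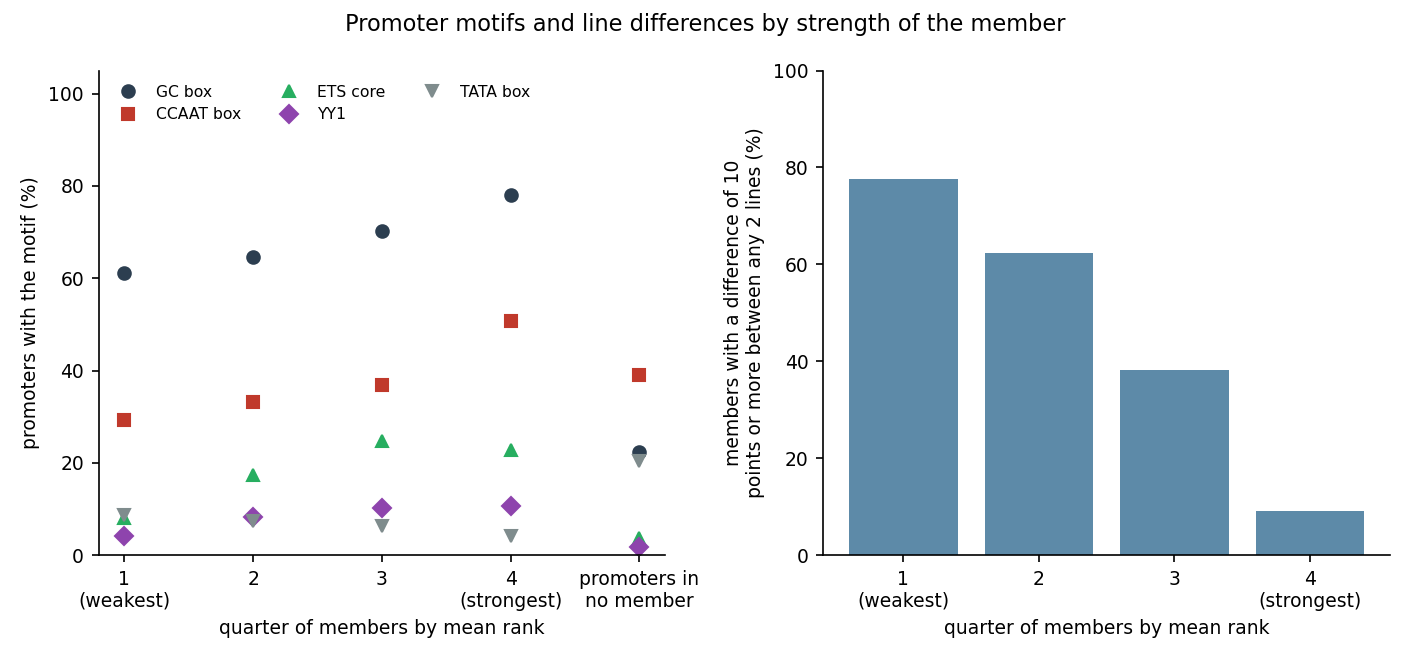
Left, share of promoters (%) that held each of 5 motifs in 4 equal groups of members by mean rank and in promoters in no member; right, share of members in each group with a rank difference of 10 percentile points or more between any 2 lines at an adjusted p under 0.05. CCAAT and GC boxes were most frequent in the strongest group, where line differences were least frequent (9.13% of members, against 77.5% in the weakest).

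Most members sat on a gene end rather than near it. A gene end lay inside 9989 members (85.4%). The end was a start in 8499 members (72.7%) and a far end only in 890 (7.61%), while the strand of the gene was not given for 2303 (19.7%). A member lay near 2 genes in 1980 cases and near 3 or more in 64, and 923 members held starts on opposite strands, the arrangement of divergent gene pairs. Of 21887 protein-coding genes, 12242 (55.9%) had a member, 1412 of them at both ends. The merged span had a median of 1467 bp and ran from 296 to 4911 bp. Whether a member is exonic or intronic is not stated, as no exons were used.

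The distance limit cut through a gradual decline. The 175 members in the last 100 bp inside the limit had a median rank of 42.0 and a median width of 884 bp, and the 127 distal regions in the first 100 bp outside it had 35.0 and 755 bp. On the side of the libraries, gene-end regions with peaks in 8 of the 9 had a median percentile of 34.0 in their lists, against 87.4 for the members.

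At the median, summits of the members lay just downstream of the start of the gene span. This was read for 7544 members with the start of a single gene span within 1000 bp. The median position of the summit of the strongest peak was +35 to +36 bp in the R172H libraries. It was +39 to +42 bp in the R245W libraries and +39 to +42 bp in the null libraries. Between 70.8% and 71.9% of summits were within 250 bp of the start, depending on the library. The position hardly moved between libraries: the summits of a member spanned a median of 86 bp over all 9 libraries and 40 bp within a line. Upstream of the start the distribution fell off faster than downstream. Genes can have further starts, as 21263 promoters were listed for 17492 genes, and inside a span these lie downstream of its start. They were not taken into account, so this shape cannot be read as that around a single start.

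**Figure D2:**
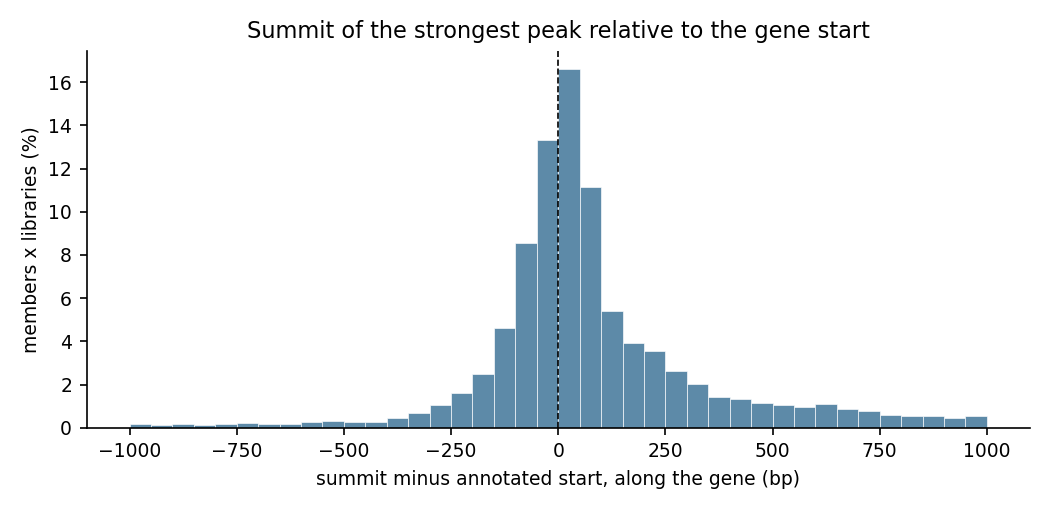
Distance in bp from the start of the gene span to the summit of the strongest peak, positive along the gene, for 7544 members with 1 such start over the 9 libraries. Other starts inside a span were not considered. Bars are the percent of member and library pairs in each 50 bp. The tallest bar, from 0 to 50 bp, held 16.6% of the summits.

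Members were stronger and wider than distal regions open in the same 9 libraries. Ranking the same regions in each library keeps the length of the lists out of the comparison, since the deposited lists held 72840 to 74352 peaks in the R172H line, 75314 to 79424 in the R245W line and 65199 to 65942 in the null line. The median rank of the members was 78.4, 78.4 and 78.6 in the R172H libraries, 76.0, 76.3 and 76.7 in the R245W libraries, and 75.4, 74.96 and 75.1 in the null libraries. Distal regions had medians of 38.4 to 38.5, 38.9 to 39.0 and 39.8 to 39.9 in the same order. In every library the members exceeded the distal regions, by 37.6 ± 2.06 percentile points on average (SD, n = 9, exact two-sided sign-flip test over libraries, p = 0.00391, the smallest that 9 libraries allow). The libraries of a line are not independent samples of a genotype, so this p covers libraries only. The gap was 40.0 ± 0.138 points in the R172H line, 37.4 ± 0.388 in the R245W line and 35.3 ± 0.252 in the null line (SD, n = 3 each), without overlap between lines.

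Members were also wider. The median width covered by peaks was 1215, 1260 and 1217 bp in the R172H libraries, 1296, 1315 and 1326 bp in the R245W libraries, and 1219, 1254 and 1215 bp in the null libraries. Distal regions had medians of 742 to 781, 839 to 861 and 779 to 809 bp. On the log2 scale the members were wider by 0.65 ± 0.04 (SD, n = 9, exact two-sided sign-flip test, p = 0.00391). Members took 15.2 to 18.6% of the peaks of a library and 25.8 to 29.3% of the bases under peaks. Taken in the whole deposited lists, 3398 members (29.1%) were at a percentile of 90 or more in every library, against 2.84% of distal regions, and 353 members (3.02%) were under 10 in at least 1 library, against 7.43% of distal regions.

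**Figure D3:**
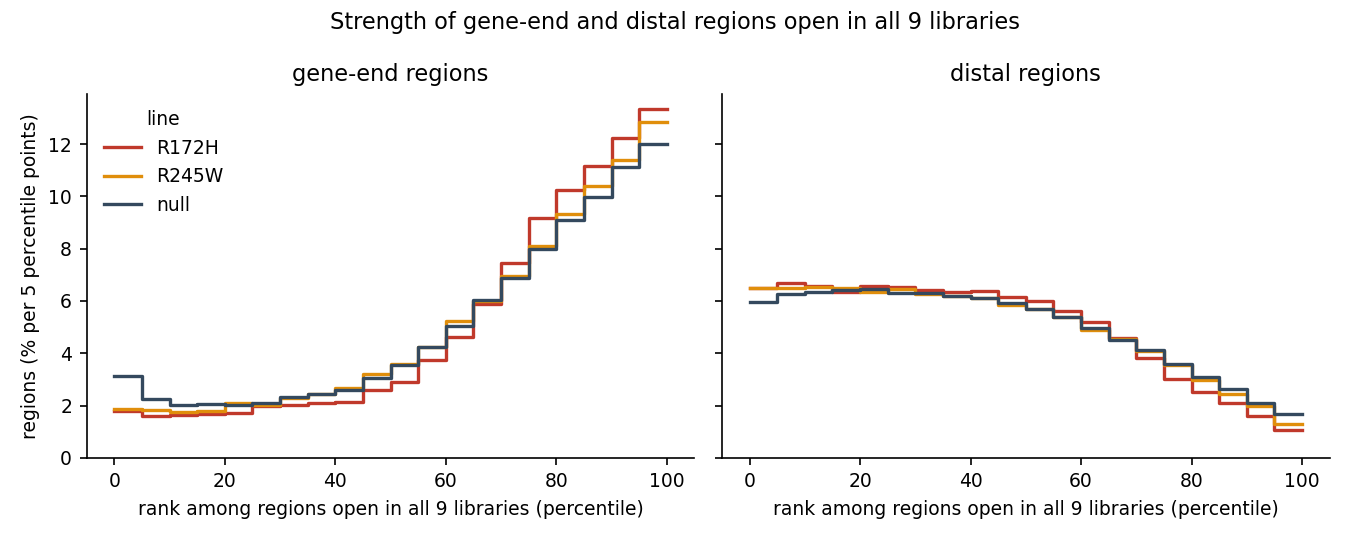
Distribution of rank (percentile among the 36473 regions open in all 9 libraries, in steps of 5) for gene-end members, left, and distal regions, right, as the percent of regions pooled over the 3 libraries of each line. Members pile up at the top of the scale, where the R172H line had 13.3%, the R245W line 12.8% and the null line 12.01% of members at 95 or more; under 5 were 1.79% of members in R172H, 1.85% in R245W and 3.11% in null.

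Starts were stronger than far ends. Members at a start had a median rank of 80.0 and a median width of 1292 bp, and members at a far end only had 31.6 and 809 bp, close to the distal medians of 38.2 and 795 bp. Far ends alone made up 24.5% of the weakest group of 2923 members and 0.411% of the strongest. Across members, mean rank and log2 width were moderately related (Pearson r = 0.44, Spearman coefficient 0.34 over 11692 members, which share libraries and depth).

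By mean rank over the 9 libraries Hjurp was first, with ranks from 99.97 to 99.98, followed by Derl1 (a channel component of protein export from the endoplasmic reticulum), Rbfox2 (a splicing regulator), Copz1, Atf7 (a bZIP transcription factor) and Lmbr1l. At the other end, Scgb3a1, a secretoglobin, ranked at 0.536, 1.16 and 1.55 in the R172H libraries, 1.51, 0.692 and 1.66 in the R245W libraries, and 0.322, 0.245 and 0.237 in the null libraries. Ube2k, Scgb2a2, Luc7l, Trp73 and Tfap2e were the next weakest. A member is named by the nearest gene end, which need not be the start of that gene. Trp73 encodes a p53 family member and Tfap2e an AP-2 transcription factor. Of the 100 strongest members over all 9 libraries, 29 lay on chromosome 15, where Copz1 lies. That chromosome holds 527 of the 11692 members. Whether the number of copies has a part in these ranks was not tested.

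The widest member lay at Klf4, and 5 others were named for their width. Klf4 was open over 3620, 3738 and 3475 bp in the R172H libraries, 3986, 3979 and 3979 bp in the R245W libraries, and 4072, 4130 and 4130 bp in the null libraries. Ssbp4, Col5a1 (a fibrillar collagen chain), Rhod, Gadd45g (a stress-response gene) and Pcdh7 (a protocadherin) followed. In all, 906 members had a mean width of 2000 bp or more and 52 of 3000 bp or more. The narrowest named members were those nearest to an end, start or far end, of Riok2, Pcp4, Zcchc14, Odf3l1, Cbx5 and Arf4. The one at Riok2 covered 236 to 320 bp in the R172H libraries, 263 to 297 bp in R245W and 225 to 365 bp in null.

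Families used by most cells had a member at nearly every gene. Of 79 cytosolic ribosomal protein genes 77 had a member, as did 40 of 40 spliceosome genes, 31 of 32 proteasome subunit genes, 62 of 64 genes of the respiratory chain and ATP synthase, 42 of 46 on the mitochondrial ribosome list, 39 of 40 genes of RNA polymerase II and basal factors, 19 of 20 aminoacyl-tRNA synthetase genes and 24 of 25 chaperonin and heat shock genes. DNA repair had 39 of 40, DNA replication and cell cycle 53 of 56, chromatin remodellers and histone modifiers 39 of 42, broadly expressed transcription factors 30 of 34 and housekeeping genes 18 of 20. By symbol, 28 of 30 Mediator subunits, 62 of 69 Rab GTPases, 34 of 38 kinesins and 50 of 57 replication-dependent histones had a member, and 299 of 397 zinc finger genes named Zfp. Sensory and defence families had few: 2 of 1110 olfactory receptors, 2 of 353 vomeronasal receptors, 3 of 42 beta-defensins and 5 of 53 keratins. Between these stood 202 of 375 solute carriers, 21 of 39 Hox genes and 21 of 99 cytochrome P450 genes.

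Markers of the tumour's own lineage had a member in most cases and those of other cell types in few, beside 55.9% of all protein-coding genes. A gene without a member can still be open in some libraries or away from its ends. Of 35 mesenchymal and osteoblast genes 28 had a member, among them Runx2 and Sp7 (the transcription factors that set osteoblast fate), Alpl, Col1a1, Col1a2, Sparc and Spp1. Ibsp, Bglap, Dmp1, Msx2, Pdgfra, Thy1 and Pth1r had none. A member was present at 5 of 18 blood cell genes, 3 of 12 endothelial, 5 of 16 epithelial, 6 of 15 neuronal and 3 of 12 liver genes, and at none of Ptprc, Pecam1, Epcam and Alb. Several of these markers share their member with a neighbouring gene, as Cd4 with Gpr162, Cd79a with Arhgef1 and Apoa2 with Tomm40l. Median ranks were 59.2 for the mesenchymal list, 58.4 for blood, 40.0 for endothelial, 5.50 for epithelial, 60.4 for neuronal and 50.9 for liver genes. They were higher for the broadly used lists, from 75.5 for the mitochondrial ribosome and 79.8 for the respiratory chain to 82.7 for cytosolic ribosomal proteins, 80.8 for RNA polymerase II, 85.1 for the proteasome, 86.4 for replication, 86.7 for housekeeping genes, 87.7 for the spliceosome, 88.0 for tRNA synthetases, 88.2 for chromatin regulators, 89.9 for broadly expressed factors, 89.96 for DNA repair and 93.3 for chaperonin and heat shock genes.

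The lines were then compared at the members, although all of them were open everywhere. Ranks of members correlated at 0.987 to 0.990 (Pearson r, across members) between libraries of a line, at 0.844 to 0.847 between R172H and null libraries, at 0.893 to 0.897 between R245W and null, and at 0.863 to 0.864 between R172H and R245W. Each region was tested with limma over the 9 libraries, with Benjamini-Hochberg adjustment over all 36473 regions, and called at an adjusted p under 0.05. Small shifts passed, since the median standard error of a difference at members was 1.93 percentile points. Differences of 10 points or more that also passed are therefore given as large differences.

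In R172H against null, 4882 members ranked higher and 2312 lower. Among all regions tested, 36.9% were called higher and 30.1% lower. Large differences numbered 2639 higher and 1027 lower among members, 22.6% and 8.78% of them, beside 26.1% and 22.9% of all regions tested. In R245W against null, 3897 members ranked higher and 2734 lower, beside 28.9% and 28.5% of all regions. Large differences there numbered 1829 and 1158, or 15.6% and 9.90% of members, beside 18.7% and 19.3% of all regions. In R172H against R245W, 4492 members ranked higher and 2753 lower, beside 36.2% and 30.5%, and 2181 and 1236 differences were large, or 18.7% and 10.6% of members, beside 25% and 22.5%. The 3 comparisons share libraries. The median absolute difference of members was 5.83, 5.19 and 5.75 points in this order, and that of distal regions 12.3, 8.48 and 11.96 points. Members ranked higher than distal regions, and strength was not held fixed.

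The split between higher and lower depended on the scale. Higher calls made up 67.9% of calls in R172H against null, 58.8% in R245W against null and 62.0% in R172H against R245W. With the percentile taken in the whole deposited list these shares were 75.6%, 78.6% and 52.7%. With the log2 summit pile-up, recovered from the deposited fold and p, they were 81.6%, 42.6% and 84.4%, as the median member then differed by 0.31, -0.05 and 0.38. The direction of the bulk of members in R245W against null therefore turns with the scale.

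Many members held their rank across the lines. No large difference in any pair was found for 6222 members (53.2%), against 33.5% of all regions tested and 24.2% of distal regions. R172H stood above both other lines at 1319 members (11.3%, against 15.8% of all regions tested) and below both at 593 (5.07%, against 15.1%). R245W stood above both at 547 (4.68%, against 8.16%) and below both at 623 (5.33%, against 8.83%). The null line stood below both mutant lines at 1155 members (9.88%, against 10.2%) and above both at 363 (3.10%, against 9.82%). A large difference in any pair was found for 77.5% of the weakest group of 2923 members, 62.3% and 38.2% of the middle ones, and 9.13% of the strongest, in which ranks have little room to move. By position the share was 42.1% at starts, 68.8% at far ends only and 75.8% in distal regions. Strength was not held fixed here or in the shares of members against distal regions. Median ranks were 80.0 at starts, 31.6 at far ends only and 38.2 in distal regions, so position and strength are not separated.

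Promoters of the members that differed had fewer CpGs than those that did not. The observed to expected CpG ratio was 0.6 or more in 86.4% of promoters in members with no large difference. That share was 61.9% where R172H stood above both other lines, 64.7% where it stood below, 66.3% where R245W stood above, 64.7% where it stood below, 70.0% where null stood below and 62.2% where it stood above. AP-1 was present in 4.12% where R172H stood above, 7.96% where it stood below, 6.21% where R245W stood above, 6.65% where it stood below, 4.37% where null stood below and 8.97% of the 156 where it stood above, against 3.87% of the promoters without a large difference. The Runx motif was present in 3.09%, 6.23%, 4.58%, 3.93%, 3.31% and 5.13% in the same order, against 2.97%. These shares are descriptions and were not tested. Strength was not held fixed, and members that differed were more often weak ones. In the weakest group of members the CpG share was 57.9% and AP-1 was present in 6.05%, against 91.1% and 3.50% in the strongest.

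Several members ranked far higher in both mutant lines than in the null line. Mn1, a transcriptional cofactor (chr5:111416500-111418042, over an end of the gene), ranked at 91.1, 91.1 and 91.0 in the R172H libraries, 67.1, 69.6 and 74.0 in the R245W libraries, and 6.11, 2.97 and 9.60 in the null libraries. The lines did not overlap, and the difference was 84.8 ± 2.67 points (SE) for R172H minus null (limma, adjusted p = 4.2e-13) and 64.0 ± 2.67 for R245W minus null (limma, adjusted p = 3.0e-11). Slc38a1, a glutamine transporter, ranked at 92.0, 89.2 and 91.2 in R172H, 72.7, 80.9 and 78.4 in R245W, and 11.3, 3.01 and 5.56 in null.

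The zinc finger gene Zfp334 and the kinesin gene Kif6 followed the same order. Zfp334 ranked at 84.8, 87.5 and 85.4 in the R172H libraries, 71.8, 72.8 and 68.5 in R245W, and 1.94, 1.55 and 9.82 in null. Kif6 ranked at 93.3, 93.9 and 93.5 in R172H, 66.1, 59.0 and 68.2 in R245W, and 17.5, 15.2 and 5.21 in null. The CpG-rich promoter of Zfp334 is printed above and holds an NRF1 palindrome, where the motif is read on both strands.

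Erich2, Lynx1 and Jrk were highest in the R245W line. Jrk (chr15:74701578-74702959), which encodes a protein related to a transposase, ranked at 34.9, 36.4 and 39.6 in the R172H libraries, 96.7, 97.5 and 94.7 in R245W, and 4.98, 7.90 and 2.68 in null. The difference was 91.1 ± 2.76 points for R245W minus null (limma, adjusted p = 2.4e-12). Lynx1, a modulator of nicotinic acetylcholine receptors on the same chromosome (chr15:74752361-74753355), ranked at 69.0, 73.6 and 71.9 in R172H, 87.1, 85.3 and 86.7 in R245W, and 2.30, 1.38 and 1.603 in null. Erich2 ranked at 79.9, 80.1 and 78.0 in R172H, 92.0, 90.4 and 91.0 in R245W, and 4.98, 3.19 and 5.21 in null. Separation of the R245W libraries from the null libraries was part of the rule that named all 3.

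Baiap2l1 was close to the top in both mutant lines. It ranked at 98.4, 98.5 and 98.4 in the R172H libraries, 97.2, 97.1 and 97.2 in R245W, and 27.9, 22.7 and 23.4 in null. R245W minus null was 72.5 ± 1.76 points (limma, adjusted p = 4.5e-13), and R172H minus R245W was 1.29 ± 1.76 points (limma, adjusted p = 0.54).

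At other members the null line was the high one. The region by the ends of Soat2, which esterifies cholesterol, and Igfbp6, which binds insulin-like growth factors (chr15:102150419-102151454), ranked at 7.28, 4.26 and 1.95 in the R172H libraries, 7.44, 3.18 and 4.19 in R245W, and 91.5, 92.3 and 89.8 in null. The difference was -86.7 ± 2.82 points for R172H minus null (limma, adjusted p = 5.5e-13) and -86.3 ± 2.82 for R245W minus null (limma, adjusted p = 3.7e-12). Chd2, a chromatin remodeller, ranked at 7.33, 19.2 and 16.5 in R172H, 13.8, 26.2 and 14.7 in R245W, and 96.6, 97.9 and 97.0 in null.

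Other members with this direction were Pdlim2, Vpreb3 and Ube2n, and Tenm4 is given below. Pdlim2, a PDZ and LIM domain protein, ranked at 31.4 to 36.0 in R172H, 23.8 to 27.6 in R245W and 88.3 to 89.9 in null. Vpreb3, a pre-B-cell gene, ranked at 3.397 to 6.06, 6.36 to 11.8 and 67.8 to 70.0 in the same order, and the far end of Ube2n, a ubiquitin-conjugating enzyme, at 1.66 to 10.1, 7.75 to 12.3 and 66.8 to 71.9.

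The R172H line was highest at a further group. A region 135 bp from the far end of Pdxp, which encodes pyridoxal phosphatase (chr15:78919652-78920721), ranked at 96.2 in each R172H library, at 3.72, 7.55 and 3.17 in the R245W libraries and at 13.3, 16.3 and 19.5 in the null libraries. R172H minus R245W was 91.4 ± 2.84 points (limma, adjusted p = 6.1e-13), the largest of the 30 named rank differences. Tor4a ranked at 89.1, 89.3 and 88.1 in R172H, 5.95, 7.36 and 5.41 in R245W, and 43.3, 46.0 and 45.8 in null, so here the null line stood between the mutant lines. The EGR co-repressor gene Nab1 and the amine oxidase gene Aoc3 also had the null line between the mutants, with mean ranks of 85.1 and 85.4 in R172H, 4.63 and 9.73 in R245W, and 49.7 and 60.3 in null. Rpp25, a subunit of RNase P, averaged 87.4 in R172H, 8.52 in R245W and 16.5 in null.

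At other members the R172H line was the low one. Enah, an actin regulator, ranked at 12.8, 11.7 and 6.97 in the R172H libraries, 84.3, 85.2 and 84.1 in R245W, and 85.8, 83.7 and 87.0 in null. R172H minus null was -75.01 ± 2.36 points (limma, adjusted p = 4.2e-13), while R245W minus null was -0.94 ± 2.36 (limma, adjusted p = 0.76). Tenm4 was low in both mutant lines and lowest in R172H. It ranked at 4.45, 7.14 and 1.75 in R172H, 24.4, 21.4 and 25.8 in R245W, and 81.5, 82.3 and 79.9 in null.

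Ifi44l and H1f8 were also low in the R172H line. Ifi44l ranked at 3.62, 0.923 and 8.88 in the R172H libraries, 82.3, 80.7 and 79.0 in R245W, and 57.3, 57.4 and 45.2 in null, with R172H minus R245W at -76.2 ± 3.48 points (limma, adjusted p = 2.0e-11). H1f8, the oocyte linker histone, averaged 15.3 in R172H, 90.3 in R245W and 65.4 in null, Fam168a, at a far end, 8.63, 89.6 and 64.6, and Tcte2, at a far end, 4.64, 49.1 and 80.0, in the same order. The 30 named large rank differences kept their sign on 4 scales: the rank, the percentile in the whole list, the pile-up and the rank centred on each chromosome. They were chosen as the largest, and the smallest of them was Ube2n at -59.4 points in R245W minus null. A change of sign was therefore hardly possible, and this says nothing of smaller differences.

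**Figure D4:**
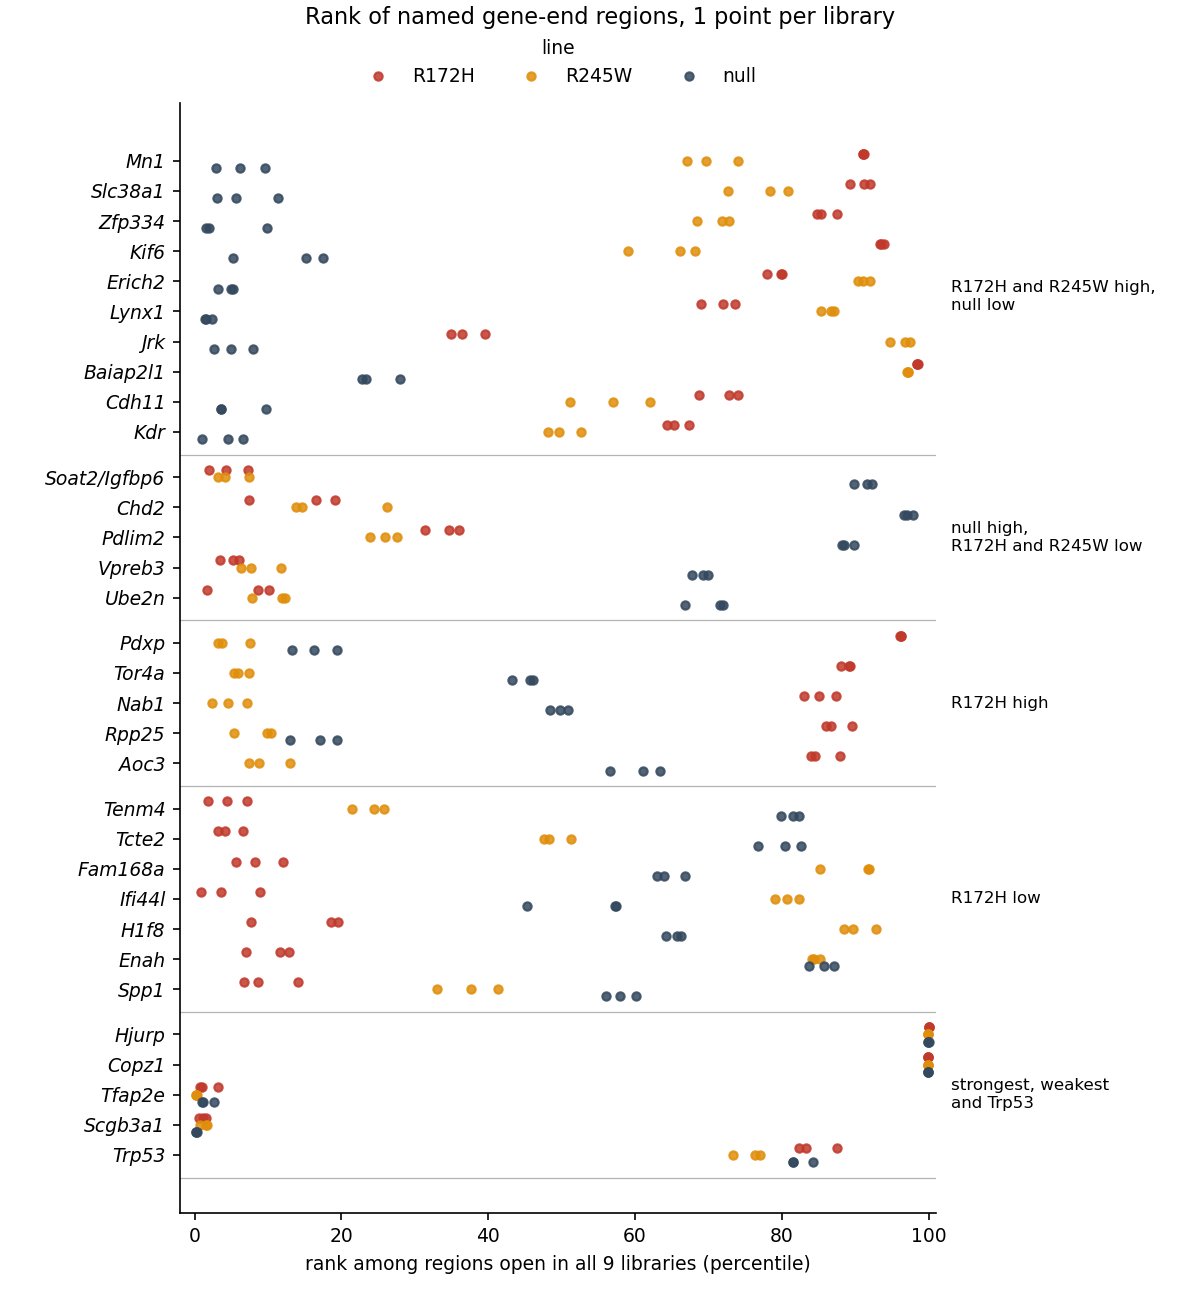
Rank of 32 named members (percentile among regions open in all 9 libraries), 1 point per library, with R172H in red above R245W in orange and null in dark blue in each row. Within a line the 3 points lie close together, while lines are often far apart, as for Mn1 (91.0 to 91.1 in R172H, 67.1 to 74.0 in R245W, 2.97 to 9.60 in null).

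Width differences were fewer. In R172H against null, 2106 members were wider and 1228 narrower, beside 18.1% and 17.5% of all regions tested (limma on log2 width centred on the median of each library). In R245W against null, 1122 were wider and 1444 narrower, beside 10.7% and 12.2%, and in R172H against R245W 2811 and 1183, beside 19.8% and 16%. The narrower calls of R245W against null moved with single libraries: they numbered 866 without R245W replicate 3, 900 without R245W replicate 2, 876 without null replicate 1 and 881 without null replicate 3. Wider calls there numbered 882, 856, 959 and 948, so they were the majority without R245W replicate 3, null replicate 1 or null replicate 3. With all 9 libraries wider calls made up 63.2% of calls in R172H against null, 43.7% in R245W against null and 70.4% in R172H against R245W, and 48.8%, 83.4% and 18.5% without centring, so the direction of the bulk turns with the centring in all 3. Differences of 0.5 or more on the log2 scale numbered 734 wider and 413 narrower, beside 9.99% and 10.4% of all regions, 560 and 171, beside 6.99% and 4.58%, and 361 and 472, beside 7.51% and 10%.

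Some gene ends were broad in the mutant lines and a narrow spike in the null line. Adcy5, an adenylyl cyclase, was open over 1908, 2408 and 2271 bp in the R172H libraries, 1731, 1548 and 1782 bp in R245W, and 279, 273 and 434 bp in null, with a log2 difference of 2.81 ± 0.17 for R172H minus null (limma, adjusted p = 1.3e-05). Mpped2, a metallophosphoesterase, measured 2402, 2229 and 2192 bp in R172H, 2516, 2483 and 2534 bp in R245W, and 439, 549 and 335 bp in null. Igf2bp3, an RNA-binding protein of fetal tissue and tumours, measured 1937 to 1981, 1970 to 2190 and 222 to 699 bp in the same order. Vstm5 averaged 1738, 877 and 329 bp, and the region by Wdr34 and Sptan1 1636, 1538 and 301 bp.

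At other gene ends a mutant line was the narrow one. Qrfp, a neuropeptide gene, was open over 246, 292 and 311 bp in the R172H libraries, 908, 961 and 1211 bp in R245W, and 1494, 1466 and 1343 bp in null. Plcl2, Tenm4 and Lrp2 were narrow in R172H too, with means of 486, 325 and 417 bp there, 1957, 1047 and 1341 bp in R245W, and 1900, 1298 and 1687 bp in null. Epha4, an Eph receptor, measured 2341, 2292 and 2331 bp in R172H, 447, 552 and 295 bp in R245W, and 1254, 1258 and 1639 bp in null. Tor4a averaged 1747 bp in R172H, 424 bp in R245W and 2247 bp in null, and Marchf11 1266, 416 and 1571 bp.

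Bone and mesenchymal genes differed in both directions. Of the 28 with a member, 13 ranked higher and 7 lower in R172H against null, beside the background of 36.9% and 30.1%, 5 higher and 8 lower in R245W against null, beside 28.9% and 28.5%, and 17 higher and 8 lower in R172H against R245W, beside 36.2% and 30.5%. The median differences were 4.59, -2.63 and 7.70 points, against 2.29, 0.86 and 1.56 over all members. Cdh11, an osteoblast cadherin, was 66.2 points higher in R172H than in null (limma, adjusted p = 3.2e-11) and 51.1 points higher in R245W than in null (limma, adjusted p = 2.0e-09). Spp1, which encodes osteopontin, was at -48.2 points in R172H minus null (limma, adjusted p = 8.7e-10) and at -20.7 points in R245W minus null (limma, adjusted p = 3.3e-05). Runx2 was at -16.7 points in R172H minus null (limma, adjusted p = 2.2e-05) and at -16.6 points in R172H minus R245W (limma, adjusted p = 2.5e-05).

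Tagln, Acta2 and Sparc were highest in the R172H line. Tagln, a smooth muscle actin-binding protein, was 34.2 points higher in R172H than in null (limma, adjusted p = 7.1e-08), Acta2, smooth muscle actin, 20.6 points, and Sparc, a bone matrix protein, 28.7 points. Acta2 lies on chromosome 19, where the median member was at 9.53 points, and its difference was 13.4 points (limma, adjusted p = 0.00065) with ranks centred on each chromosome. This centring took the median of all regions open in all 9 libraries on the chromosome, members and distal regions alike. It need not remove the whole shift of the members. Sparc was lower in R245W than in null, at -11.6 points (limma, adjusted p = 0.0011), and at -7.08 (limma, adjusted p = 0.030) after this centring. Pdgfrb, the platelet-derived growth factor receptor of mesenchymal cells, was at -34.8 points in R245W minus null (limma, adjusted p = 5.3e-09). Pdgfrb lies on chromosome 18, where the median member was at -11.4 points in R245W minus null, and its difference was -21.3 points (limma, adjusted p = 3.0e-07) after centring.

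Most known p53 target genes had a member in these lines without normal p53, as most genes did. A member was found at 26 of 30 (86.7%), and Cdkn1a, Perp, Dram1 and Ptp4a3 had none. The share was 55.9% of all protein-coding genes and 88.2 to 100% in the broadly used lists. In R172H against null 8 of the 26 ranked higher and 3 lower, in R245W against null 10 and 8, and in R172H against R245W 11 and 5, with the same backgrounds as above. Large differences numbered 5 and 0, beside 26.1% and 22.9% of all regions, 2 and 2, beside 18.7% and 19.3%, and 3 and 1, beside 25% and 22.5%. Tigar, a regulator of glycolysis, was 19.1 points higher in R172H than in null (limma, adjusted p = 1.6e-09) and 16.6 points higher in R245W than in null (limma, adjusted p = 2.4e-08). It lies on chromosome 6, where the median member was at 7.53 and 7.98 points, and centring on chromosomes left 15.3 points (limma, adjusted p = 3.4e-09) and 9.29 points (limma, adjusted p = 7.8e-06). Part of the shift of the members can remain, as the centring used all regions on the chromosome. The receptor gene Eda2r was 27.9 points higher in R245W than in null (limma, adjusted p = 3.4e-07), and the death receptor gene Fas was at -16.2 points in the same comparison.

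The region over the start of Trp53 and its neighbour Wrap53 (chr11:69578799-69581968) ranked at 83.2, 82.3 and 87.6 in the R172H libraries, 73.4, 77.1 and 76.4 in R245W, and 84.2, 81.5 and 81.5 in null. R245W was lower than null, at -6.81 ± 1.65 points (limma, adjusted p = 0.0021), and R172H minus null was 1.97 ± 1.65 (limma, adjusted p = 0.30). With ranks centred on chromosomes R245W minus null was -2.30 points and was no longer called (limma, adjusted p = 0.26). Openness there does not tell the alleles apart, so it is no check of the genotypes.

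Immediate-early genes, which respond within minutes to growth signals, had a member in 24 of 25 cases, beside 55.9% of all protein-coding genes. In R172H against R245W 15 of the 24 ranked higher and 3 lower, beside 36.2% and 30.5% of all regions tested, with a median of 6.28 points, against 1.56 over all members. In R245W against null 2 ranked higher and 11 lower, beside 28.9% and 28.5%, with a median of -2.88 points, against 0.86. In R172H against null the counts were 9 and 6, near the background of 36.9% and 30.1%, with a median of 0.12, against 2.29. Egr1, a zinc finger factor, was at -22.8 points in R245W minus null (limma, adjusted p = 7.9e-08), Junb, an AP-1 subunit, at -12.5 points and Jun at -12.3 points. Egr1 lies on chromosome 18, where the median member was at -11.4 points, and its difference was -9.34 points (limma, adjusted p = 0.00052) after centring on chromosomes. Srf, the serum response factor, was at -39.9 points in R172H minus null (limma, adjusted p = 6.6e-09) in a member it shares with Cul9.

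Broadly used lists had small median differences, most of them below those of all members. The medians of all members were 2.29, 0.86 and 1.56 points in the order used below. The median differences of the 13 such lists lay between -0.85 and 2.01 points in R172H against null, between -1.21 and 1.55 in R245W against null, and between -0.33 and 1.69 in R172H against R245W. Ribosomal protein genes had 22 of 77 higher and 15 lower in R172H against null, beside 36.9% and 30.1% of all regions, 11 and 21 in R245W against null, beside 28.9% and 28.5%, and 30 and 16 in R172H against R245W, beside 36.2% and 30.5%. Single members still differed. Rps15a, a ribosomal protein of the small subunit, averaged 80.2 in R172H, 48.2 in R245W and 81.5 in null. Snap25 and Kdr, of the neuronal and endothelial lists, averaged 75.3 and 65.7 in R172H, 42.7 and 50.1 in R245W, and 47.4 and 4.05 in null. Among the lists of other cell types, 5 neuronal members ranked higher and 0 lower in R172H against null, 2 and 2 for blood, 2 and 0 for endothelial, 2 and 0 for epithelial, and 1 and 0 for liver genes, beside the background of 36.9% and 30.1%. In R245W against null these counts were 2 and 1 for neuronal, 2 and 3 for blood, 1 and 0 for endothelial, 2 and 0 for epithelial, and 0 and 1 for liver genes, beside 28.9% and 28.5%.

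Members on the same chromosome shifted together. In R172H against null the median difference was 9.53 points for the 441 members on chromosome 19, 8.48 on chromosome 2, 7.91 on chromosome 8 and 7.53 on chromosome 6, and -5.54 on chromosome 4. In R245W against null it was 7.98 on chromosome 6 and -11.4 points for the 286 members on chromosome 18, of which 168 (58.7%) had a large difference downwards, against 9.90% of all members. In R172H against R245W it was 8.66 on chromosome 18 and -6.85 on chromosome 3. Of the 100 strongest members in each line, 22 lay on chromosome 8 in R172H, 21 on chromosome 6 in R245W and 18 on chromosome 4 in null, and chromosome 15, with 527 of the 11692 members, held 21, 14 and 22 of them.

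**Figure D5:**
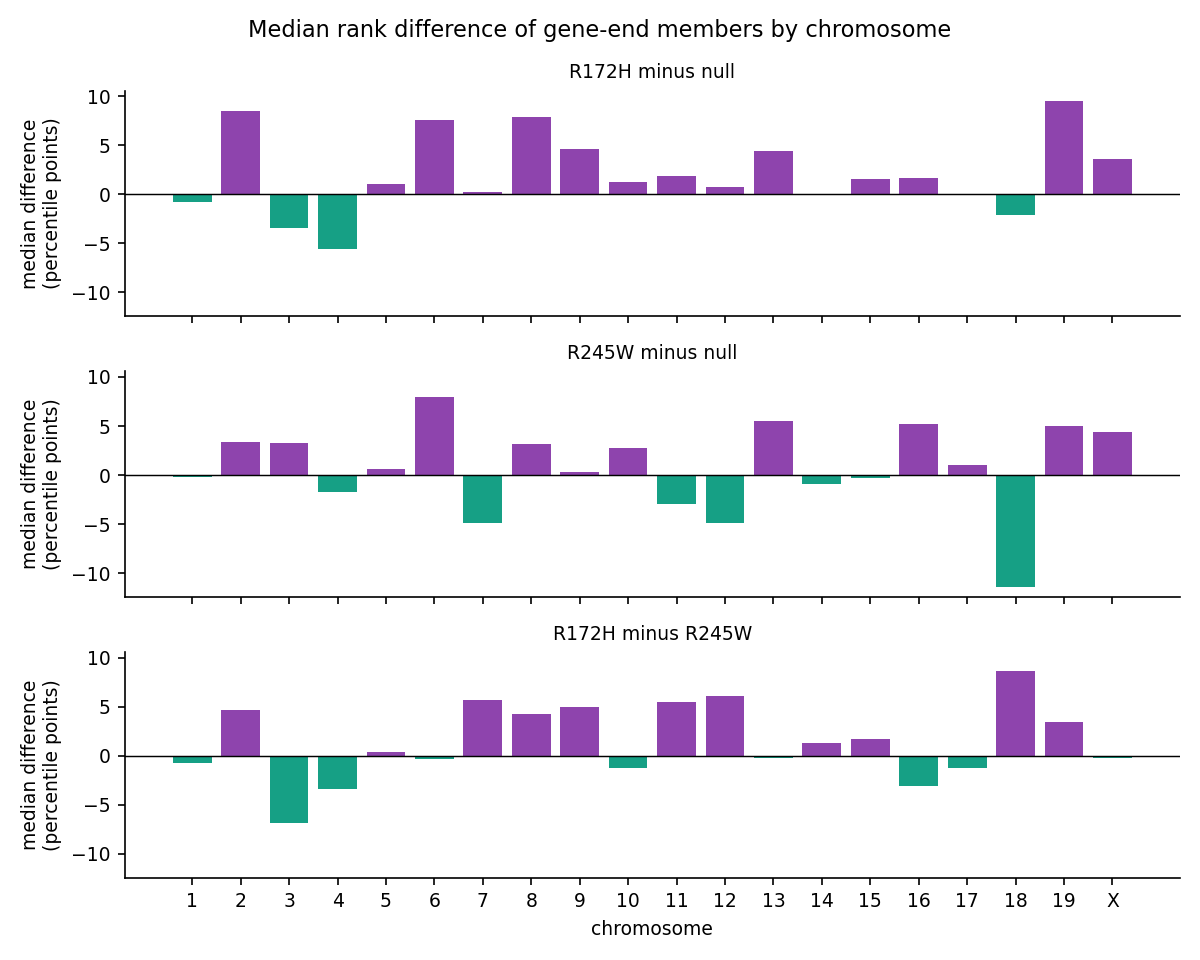
Median rank difference of gene-end members by chromosome (percentile points) for R172H minus null, R245W minus null and R172H minus R245W; purple bars are above 0 and green bars below, and the Y chromosome, with 1 member, is left out. Chromosome 18 is lowest in R245W minus null (-11.4 points) and highest in R172H minus R245W (8.66 points).

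Shorter stretches did so as well. Among 379 stretches of 5 Mb with 10 or more members, the median difference was 10 points or more in either direction in 33 for R172H against null, in 21 for R245W against null and in 16 for R172H against R245W. The 3 that follow were chosen from these 379 for their large differences, after the values were seen. On chromosome 13 from 65 to 70 Mb, 21 of 28 members had a large difference upwards in R172H against null, beside 26.1% of all regions tested, with median ranks of 77.9 in R172H, 80.0 in R245W and 63.7 in null. On chromosome 12 from 30 to 35 Mb, 16 of 18 members had a large difference downwards in R245W against null, beside 19.3%, with median ranks of 79.0 in R172H, 70.9 in R245W and 92.6 in null. On chromosome 9 from 55 to 60 Mb, 39 of 55 members had a large difference upwards in R172H against R245W, beside 25%, with medians of 81.9 in R172H, 63.7 in R245W and 70.2 in null.

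The strength of a peak follows the number of copies of a region as well as its openness, and these cannot be told apart in peak lists. Ranks were also centred on each chromosome, by the median of all its regions open in all 9 libraries, members and distal. With ranks centred on the median of each chromosome in each library, large differences numbered 3167 in R172H against null, 2446 in R245W against null and 2960 in R172H against R245W, of which 2700, 1998 and 2439 were among the 3666, 2987 and 3417 found without centring. The 30 named rank differences kept their direction, which centring could hardly reverse, as they were chosen as the largest. Mn1 was at 86.4 points in R172H minus null after centring, Pdxp at 88.6 in R172H minus R245W and Enah at -73.05 in R172H minus null.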

How the data were processed

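ATAC-seq peak lists of 9 libraries from 3 mouse osteosarcoma lines were used. Per the submitters' processing notes, reads on GRCm38 passed through Trimmomatic 0.33, bcl2fastq 2.17, MACS2 2.1.0, deepTools and Bowtie 1.1.2, listed without order. No settings are known, and duplicate removal and any Tn5 shift were not given in the sources used here. The deposited peak lists give for each peak a score, a fold over background as a ratio, and -log10 p-values and -log10 q-values. The lowest deposited -log10 q was 1.30, or q of 0.05. Read depth is unknown, since the lists give no totals.

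Peaks that overlapped by 1 bp or more over the 9 lists were merged, and regions were matched to protein-coding gene spans of RefSeq (GRCm38). The rank of a region is the percentile of the -log10 q of its strongest peak among regions open in all 9 libraries, and its width is the bases under its peaks, on the log2 scale and centred on the median of the library. Both were fitted with limma 3.58.1 (R 4.3.3) over the 9 libraries, with a trend on the mean, no block and Benjamini-Hochberg adjustment over all 36473 regions. Large differences also reached 10 points or 0.5 on the log2 scale. Gene ends and distal regions were compared by an exact sign-flip test over libraries. The fits were also run on simulated data with independent normal noise and large implanted shifts. Those data lacked the shifts shared along chromosomes, so that run checks the code only. Tables and plots were made in Python 3.11.15 with pandas 2.3.3, numpy 2.4.6, matplotlib 3.10.9 and scipy 1.17.1. Promoters came from RefSeq (GRCm38.p6).

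The members, the 21 gene lists (those named in the report) and the tests were chosen with earlier results of these data known. The symbol families, the motif sets by line, the 100 strongest members and the stretches of 5 Mb were chosen after values were seen. Members were named as the 5 most changed in rank and in width in each direction of each comparison, the strongest, weakest, widest and narrowest, and up to 4 members of each list by lowest adjusted p. Other list members named in the report were picked after their values were seen. Alternatives were other scales, thresholds, windows, each library left out and a replicate block. Some members that this rule names are not reported here.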

Additional observations from a re-analysis of the deposited data

How the results depend on the processing

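None of the 128 totals and gaps recomputed under alternatives moved by more than 1.5 times or changed sign, but counts in 1 direction did. Narrower calls in R245W against null were 866 to 1478 without 1 library, against 1444 with all, and the wider share was 43.1 to 52.3%. On the pile-up, higher calls in R172H against R245W were 8107, against 4492 by rank, and the median in R245W against null was -0.05, against 0.86. The members numbered 11401 with -log10 q of 5 or more, 10716 with windows of 250 bp either side of the summit, 10929 within 500 bp and 13022 within 2000 bp, and 11694 to 11756 when 1 library was left out. Members called for rank numbered 7194 in R172H against null, 6631 in R245W against null and 7245 in R172H against R245W, 6666 to 7287, 6093 to 6574 and 6661 to 7267 without 1 library, and 7149, 6603 and 7205 with the replicate block. The log2 pile-up gave 9546, 8144 and 9606, and centring on chromosomes 6731, 5932 and 6560. For width the counts were 3334, 2566 and 3994, 2661 to 3150, 1748 to 2596 and 2895 to 3850 without 1 library, and 3012, 2169 and 3479 with the replicate block. The gap to distal regions was 37.3 to 37.9 points, and 0.65 to 0.66 in log2 width, without 1 library. Of 810 values for 60 named differences, which were chosen as the most changed, 807 kept their call and direction. The other 3 were the width of Kif1a in R172H minus R245W without any one of the R245W libraries, which kept its direction and lost its call. The q threshold was not run for named members. The replicate numbers did not pair the libraries, since correlations of same-numbered libraries were -0.008 to 0.0149, where 0.1 was needed.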
